A study of Mus musculus with 6 samples.

Results

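Nonsense-mediated decay and the other cytoplasmic and nuclear RNA decay routes were followed here through 54 genes, taken by name: every splicing event of these genes in the deposited table was used, whatever its values. The table held 445 events in 49 of the 54 genes, out of 45595 events in 9590 gene symbols. The RNA came from N2a (Neuro-2a), an established line of mouse neuroblastoma cells. The labels give 3 wild-type libraries and 3 libraries of hnRNP DL-/- cells, which lack the RNA-binding protein encoded by Hnrnpdl. How the knockout was made, and whether it is a single clone, is not given in the sources used here. The question of the series was how the loss of hnRNP DL bears on splicing. The table arranges its libraries in 2 sets of 3 and no label ties a set to a genotype, so the groups are called set 1 and set 2 and no direction below can be read as an effect of the knockout.

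Eukaryotic mRNA is normally shortened from its poly(A) tail, decapped and digested from the 5′ end, or digested from the 3′ end by the exosome. Nonsense-mediated decay (NMD) is the branch that removes mRNA whose stop codon lies well upstream of an exon junction: the exon junction complex left by splicing marks the junction, UPF2 and UPF3 link it to the helicase UPF1, the kinase SMG1 phosphorylates UPF1, and SMG5 and SMG6 help to bring in or supply the nucleases that degrade the mRNA. Many RNA-processing factors carry exons whose inclusion or skipping shifts the frame and sends part of their own transcripts into this route.

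Junction reads over all events came to between 13501749 and 18185394 per library, and those on the member events to between 101551 and 126773, with a read counted again in each event it belongs to. Hnrnpdl itself had junction totals of 400, 429 and 433 CPM (junction counts scaled to a common library sum) in set 1 and 470, 502 and 502 in set 2, a log2 ratio of -0.22 ± 0.09 (limma, adjusted p = 0.392). These totals were not used to assign a genotype to a set. Among marker genes of the line, Th, Nefl, Nefm and Tubb3 had no junction total, and Chga, Gap43 and Dbh did. Chga did not pass the test (log2 ratio -0.01, limma adjusted p = 0.988), nor did Gap43 (-0.94, limma adjusted p = 0.339), while the noradrenaline-synthesis enzyme Dbh was lower in set 1 (-2.37, limma adjusted p = 0.00349). Nothing in the labels says that the libraries of a set came from separate cultures, so the p-values speak only of library-to-library spread, which may be technical.

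The sequences behind the splicing results are printed first, 5′ to 3′ on the strand of the gene, from GENCODE vM21 transcripts (GRCm38, the assembly of build mm10). The exons of Dcp1a and Tnrc6a are shown because the authors' deposited table calls both. The Smg1 exon is shown because its inclusion ends the reading frame of the kinase that starts NMD. The Skiv2l stretch is shown because it lies between the 2 acceptors to which a retained intron was measured. Capitals mark the alternative exon or stretch and lower-case letters the 12 transcript bases on each side.
Dcp1a, chr14:30512984-30513097, plus strand: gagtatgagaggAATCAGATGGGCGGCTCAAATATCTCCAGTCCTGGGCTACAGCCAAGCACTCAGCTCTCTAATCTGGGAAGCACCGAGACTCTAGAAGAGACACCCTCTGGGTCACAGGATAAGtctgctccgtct
Tnrc6a, chr7:123180249-123180395, plus strand: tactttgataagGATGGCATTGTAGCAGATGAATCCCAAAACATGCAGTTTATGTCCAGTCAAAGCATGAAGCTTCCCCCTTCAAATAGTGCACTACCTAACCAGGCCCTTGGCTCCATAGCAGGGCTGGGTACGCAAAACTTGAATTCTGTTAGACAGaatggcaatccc
Smg1, chr7:118217720-118217777, minus strand: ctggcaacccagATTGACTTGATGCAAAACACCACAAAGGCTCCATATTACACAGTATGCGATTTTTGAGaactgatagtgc
Skiv2l, chr17:34846148-34846173, minus strand: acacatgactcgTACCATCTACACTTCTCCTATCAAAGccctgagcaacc

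A second group consists of tandem acceptors, where the 3′ splice site can be read at either of 2 AG dinucleotides 3 bases apart and the mRNA gains or loses a codon's worth of bases. Capitals mark the 3 bases present only in the longer form. The 7 sites shown are those in coding sequence with at least 50 reads on the rarer form over the 6 libraries.
Rbm8a, chr3:96630477-96630479, plus strand: gctttggctccgAAGaggggtcccgag
Upf2, chr2:6046898-6046900, plus strand: gaaaaccttcagCAGcgaagtggtgag
Pum2, chr12:8719003-8719005, plus strand: agccacatatagCAGgccttgctccag
Cnot1, chr8:95755109-95755111, minus strand: cacagcttccagTAGgtggtcttggca
Edc4, chr8:105888596-105888598, plus strand: ttccttgcccagTAGaccacctgagga
Cnot3, chr7:3653197-3653199, plus strand: ggcgacaaggatCAGaagcaggaccgg
Edc4, chr8:105888118-105888120, plus strand: acgaggacttcaCAGcatttggagagt

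Events of the decay genes were called about as often as those of the whole table. The authors' deposited table, read at an adjusted p under 0.05 with inclusion levels at least 0.10 apart, calls 3 of the 445 member events (0.674%), against 0.645% of all events. They lie in Dcp1a, Tnrc6a and Skiv2l, 3 of the 49 genes with an event (6.12%), against 2.63% of all genes in the table. The shares per gene do not allow for the greater number of events per member gene. Members had 445 events over 49 genes, against 45595 over 9590 in the whole table. The inclusion level is the share of the form with the alternative part among the junction reads of its own event, from 0 to 1. It is corrected for the length of each form and is not a share of all transcripts of the gene. A moderated quasi-binomial test, which compares the same reads against the spread between libraries, called 0 of 413 member events with a mean of 20 or more reads and 0 of all 39419 events tested (0.0%). At an unadjusted p under 0.05 it had 10 member events (2.42%) against 3.45% of all events, and the smallest adjusted p of a member was 0.735. Limma on logit levels also called 0 member events, with 17 of 413 (4.12%) at an unadjusted p under 0.05. The 3 libraries of one set all lay above the other 3 in 25 of the 413 member events (6.05%), against 5.55% of all events, with set 1 above in 16 and below in 9. The change in mean level was under 0.05 in 381 of the 413 (92.3%; all events 90.1%) and its median size was 0.007, beside 0.008 over all events.

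Among decapping genes, Dcp1a encodes an activating partner of the decapping enzyme DCP2. Its 114-base exon, exon 6 of 10 in Dcp1a-201, is coding, and leaving it out shortens the predicted protein from 602 to 564 residues in frame. In set 1 the exon had 32, 31 and 22 inclusion reads and 0, 1 and 1 skipping reads, which gives levels of 1.0, 0.946 and 0.926. In set 2 it had 19, 26 and 16 inclusion reads and 7, 6 and 2 skipping reads, with levels of 0.607, 0.711 and 0.82. Every library of set 1 lay above every library of set 2. The mean was 0.957 against 0.713, with an adjusted p of 0.000877 in the authors' deposited table. In the quasi-binomial test the unadjusted p was 0.011, and it did not survive adjustment (0.735). The event has a mean of 27.2 reads per library, and all of the difference rests on 17 skipping reads.

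Edc4, a scaffold that joins DCP1A to DCP2, carries 2 of the tandem acceptors printed above. At the TAG site the longer form had levels of 0.506, 0.46 and 0.469 in set 1 and 0.444, 0.31 and 0.347 in set 2. The sets did not overlap (means 0.478 and 0.367, unadjusted quasi-binomial p = 0.0463, adjusted 0.735). At the CAG site the longer form was the rarer in all libraries, with means of 0.165 and 0.131. The sets did not overlap there either, but the unadjusted quasi-binomial p was 0.394. Dcp1b, the paralogue of Dcp1a, had an alternative acceptor with means of 0.974 and 0.875 and a retained intron at 0.967 and 0.845 that ends at the same acceptor; both had sets that did not overlap and unadjusted p of 0.0709 and 0.0933. In all, 38 decapping events were tested, 2 had an unadjusted p under 0.05 and 5 had sets that did not overlap. Over all events tested the shares were 3.45% and 5.55%. The 2 Dcp1b events, which share an acceptor, were counted separately.

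In the miRNA silencing group, Tnrc6a encodes GW182, the scaffold that Argonaute proteins use to bring deadenylases to target mRNA. Its 147-base exon, part of Tnrc6a-205, is coding and in frame (1945 residues with it, 1896 without). The exon had 120, 84 and 72 inclusion reads with 136, 126 and 156 skipping reads in set 1, for levels of 0.308, 0.252 and 0.189. In set 2 it had 147, 134 and 131 inclusion reads with 113, 119 and 93 skipping reads, for levels of 0.397, 0.363 and 0.416. Every library of set 1 lay below every library of set 2, and by level the form without the exon was the commoner in both. The means were 0.250 and 0.392, with an adjusted p of 0.00354 in the authors' deposited table. The unadjusted quasi-binomial p of 0.00353 was the smallest of the 413 member events (adjusted 0.735). With a mean of 239 reads per library this is the better covered of the 2 called exons, by a wide margin over Dcp1a.

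Other exons of the silencing genes were alternative in both sets at like levels. The paralogue Tnrc6b left out a 159-base in-frame exon in part of its transcripts (inclusion 0.697 and 0.751), and Tnrc6c a 174-base one (0.868 and 0.901). A 33-base exon of Tnrc6a was included at 0.866 and 0.824. Pum2, a Pumilio protein that binds target mRNA and recruits the CCR4-NOT deadenylase, included its 237-base exon at 0.578, 0.664 and 0.574 in set 1 and 0.647, 0.558 and 0.501 in set 2. The sets overlapped there (quasi-binomial p = 0.449). Zc3h14, a poly(A)-binding zinc-finger protein, shows how far a level depends on the neighbours it is measured against: its 160-base exon at chr12:98779108-98779267 read 0.965 and 0.963 against one pair of flanking exons and 0.411 and 0.440 against another, with overlapping sets in both. Of 86 tested events in this group, 1 had an unadjusted p under 0.05, the Tnrc6a exon, and 5 had sets that did not overlap. Over all events tested the shares were 3.45% and 5.55%.

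**Figure D1:**
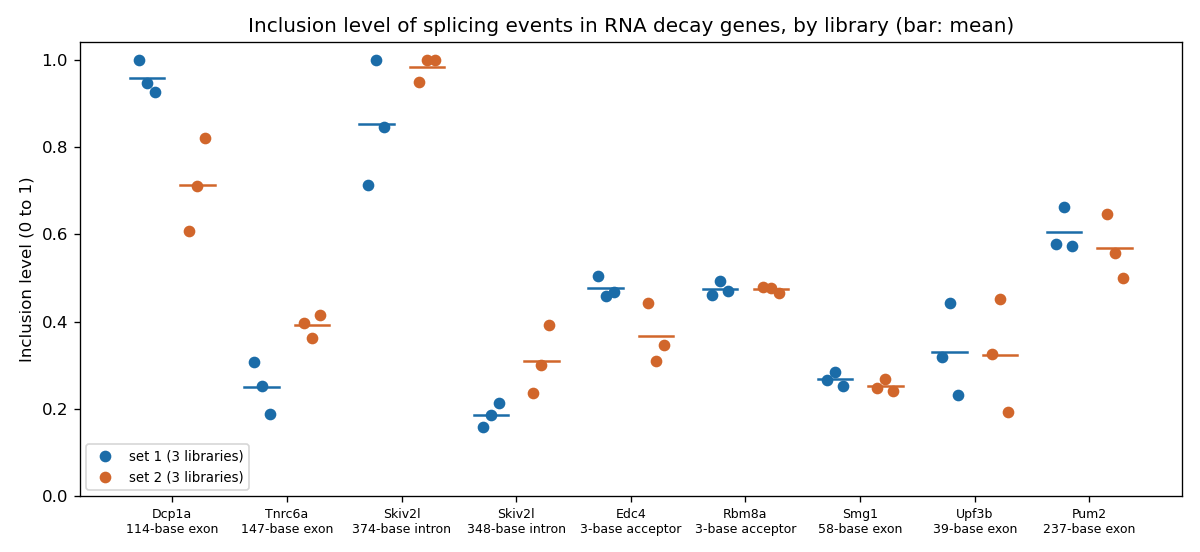
Inclusion level (0 to 1, vertical axis) of 9 splicing events in each of the 6 libraries; points are libraries, bars are set means, blue is set 1 and orange is set 2. Dcp1a and Tnrc6a separate by set, the called Skiv2l intron (374 bases) overlaps, and Rbm8a, Smg1, Upf3b and Pum2 overlap.

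The third called event is a retained intron of Skiv2l, the helicase of the cytoplasmic SKI complex that threads mRNA into the exosome. The event spans chr17:34846148-34846521, 374 bases. It had 30, 29 and 22 inclusion reads and 6, 0 and 2 skipping reads in set 1 (levels 0.714, 1.0 and 0.846). In set 2 it had 38, 46 and 33 inclusion reads and 1, 0 and 0 skipping reads (levels 0.95, 1.0 and 1.0). The sets overlap, since a library of set 1 also stands at 1.0. The means were 0.853 and 0.983, with an adjusted p of 0.0281 in the authors' deposited table and an unadjusted quasi-binomial p of 0.0325. The call rests on 9 skipping reads, 6 of them in library 1 of set 1. Without that library the change in level was -0.06 in place of -0.13.

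The acceptor of this intron is not the one that most reads of the alternative-acceptor event of Skiv2l used. The 26 bases printed above, chr17:34846148-34846173, lie inside the called intron but are exon in transcripts spliced at an acceptor 26 bases upstream. In the alternative-acceptor event the form with these bases had mean levels of 0.953 and 0.994. The same intron measured to the upstream acceptor, chr17:34846174-34846521 (348 bases), had 26, 27 and 18 inclusion reads against 68, 59 and 33 skipping reads in set 1, and 37, 37 and 31 against 60, 43 and 24 in set 2. Its levels were 0.16, 0.186 and 0.214 in set 1 and 0.236, 0.301 and 0.392 in set 2, which do not overlap. Both measures of the intron had similar numbers of inclusion reads, and they differed in the skipping reads set against them. Measured to the upstream acceptor, retention was a minority form in all 6 libraries (means 0.187 and 0.310). The authors' deposited table gives this event an adjusted p of 0.108, and the unadjusted quasi-binomial p was 0.0286.

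No event of an exosome ring or cap subunit passed the quasi-binomial test, which called 0 of all 39419 events tested. Exosc8, a ring subunit, used an acceptor that adds 12 bases at chr3:54732218-54732229 at levels of 0.016, 0.02 and 0.018 in set 1 and 0.005, 0.003 and 0.006 in set 2. The sets did not overlap, and the form stayed under 0.02 in mean level in both (unadjusted quasi-binomial p = 0.0258, adjusted 0.735), on 1 to 7 reads per library. Exosc2, a cap subunit that binds RNA, retained an intron at 0.102, 0.084 and 0.071 in set 1. In set 2 its levels were 0.119, 0.118 and 0.114 (unadjusted quasi-binomial p = 0.0432). No annotated coding sequence covers this intron, which lies downstream of coding exon 3 of 9 in Exosc2-201. The effect of its retention on the reading frame was not worked out. Of 69 tested events over the exosome and its cofactors, 5 had an unadjusted p under 0.05 and 5 had sets that did not overlap. Over all events tested these shares were 3.45% and 5.55%.

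Among NMD factors none of the 62 events was called in the authors' deposited table, where 0.645% of all events were. Of 55 tested, 1 had an unadjusted quasi-binomial p under 0.05 and 1 had sets that did not overlap. Over all events tested these shares were 3.45% and 5.55%. The smallest quasi-binomial p was that of a mutually exclusive pair of Upf1 exons at chr8:70337489-70337632, with levels of 0.56, 0.437 and 0.509 in set 1 and 0.437, 0.364 and 0.41 in set 2 (p = 0.00511, adjusted 0.735). A library of each set stood at 0.437. Upf3b, which bridges UPF2 to the exon junction complex, had a 39-base in-frame exon whose skipped form was the commoner by level. Its inclusion levels were 0.319, 0.443 and 0.232 in set 1 and 0.327, 0.453 and 0.193 in set 2. The spread within each set far exceeded the difference of the means (0.331 and 0.324). Upf2 used the CAG tandem acceptor at mean levels of 0.765 and 0.749 with overlapping sets. Smg1 included its 58-base exon at 0.266, 0.286 and 0.254 in set 1 and 0.248, 0.27 and 0.242 in set 2 (quasi-binomial p = 0.76). The libraries of both sets were interleaved. Smg8 and Smg9, which regulate the SMG1 kinase, had no event in the table, and the endonuclease gene Smg6 had none with enough reads to test.

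The 3 exon junction complex genes had the smallest median change of the 7 role groups, 0.002 over 9 tested events. None of these had an unadjusted quasi-binomial p under 0.05 (3.45% over all events). Rbm8a encodes Y14, the partner of Magoh in the core of the complex, and its tandem acceptor had more reads on the rarer form than any other member event, with a mean of 1786 reads per library on both forms. The longer form with AAG stood at 0.461, 0.494 and 0.471 in set 1 and at 0.48, 0.477 and 0.466 in set 2. Both acceptors were used about equally in every library and the sets overlapped (means 0.475 and 0.474, quasi-binomial p = 0.982). Casc3, the peripheral subunit, gave the smallest p of the group at 0.237, for an exon included at 1.0 and 0.997.

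Of the 32 tested alternative acceptor events of members, 9 added 3 bases, and 487 of 2666 did over the table; whether these shares differ was not tested. The other 2 of the 9, in Upf2 and outside the annotated coding sequence of Exosc2, had 1 and 8 reads on the rarer form. Use of the longer form ranged widely from site to site. It was highest at Upf2 (CAG, 0.765 and 0.749), Pum2 (CAG, 0.765 and 0.721) and Cnot1 (TAG, 0.713 and 0.682), intermediate at Rbm8a (AAG) and the Edc4 TAG site, and lowest at Cnot3 (CAG, 0.231 and 0.197) and the Edc4 CAG site, among the 7 sites printed. The same 3 letters CAG thus stood at both ends of the range, and the sites differed from each other far more than any site did between sets. Pum2 also has an acceptor 15 bases further upstream, which took most of the reads there. Against the CAG form, the form from that acceptor stood at 0.770 and 0.788. The Pum2 levels above therefore cover only the reads that did not use it.

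Deadenylation genes held the most events, 149, of which 140 were tested. Cnot2, a core subunit of CCR4-NOT, had 50 by itself, more than any other member, and 31 of these were skipped-exon events on 12 distinct exons, so that the events share reads. None of its events was called in the authors' deposited table (0.645% over all events), and 1 of 45 tested had sets that did not overlap (5.55% over all events). Its 123-base in-frame exon at chr10:116527827-116527949 was included at 0.777, 0.783 and 0.786 in set 1 and 0.775, 0.802 and 0.767 in set 2 (quasi-binomial p = 0.989). The smallest p of the group was that of a mutually exclusive pair of Cnot2 exons, 0.0293, at mean levels of 0.955 and 0.908. In Pan3, which brings the PAN2 nuclease to the poly(A) tail, the 148-base exon at chr5:147488111-147488258 had levels of 0.934, 0.979 and 0.924 in set 1 and 0.87, 0.898 and 0.822 in set 2. The sets did not overlap, on 1 to 8 skipping reads per library, and the unadjusted quasi-binomial p was 0.0936. Cnot6, a catalytic deadenylase subunit, used a donor that adds 15 bases at 0.139 and 0.179. Cnot1, the scaffold, used a donor that adds 21 bases at 0.336 and 0.365, and the sets overlapped at both donors. No annotated coding sequence covers these 21 bases, which lie between coding exons 38 and 48 of Cnot1-203. Their effect on the reading frame was not worked out. The exonuclease Xrn2 gave the smallest p of the 5′ to 3′ exonucleases (0.0974, an exon at 0.991 and 0.979).

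Mutually exclusive exon events made up 16.9% of member events and 10.1% of all events, and their levels are not always those of an exclusive choice. Of 38 member events of this kind with a level from 0.2 to 0.8 in set 1 whose first exon was also tested as a skipped exon, 34 had a skipped-exon level over 0.95 in both sets; the other member events of this kind were not compared. For instance a 155-base exon of Cnot6 stood at 0.475 and 0.493 as a member of an exclusive pair and at 1.0 and 0.997 as a skipped exon. The high read counts on the rarer form in the pairs of Cnot1, Cnot6, Zc3h14, Pum2, Lsm1, Exosc2 and Upf1 are of this class of event, and no direction is drawn from them.

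The exons of these genes were also sorted by what leaving them out, or putting them in, would do to the reading frame, which uses only the annotation. A form was counted as having an early stop where its first in-frame stop lay more than 50 bases before the last exon junction, the usual rule for an NMD target. The best covered event of each of 202 tested exons in coding transcripts was used. Skipping gave an early stop for 108 exons, and in these the skipped form was rare in the best covered event: its median level was 0.00425, it exceeded 0.02 for 15 exons (13.9%) and 0.1 for 1 exon (0.926%), the 34-base exon 5 of Exosc1 (skipping level 0.198). This count depends on the event that stands for an exon: over any tested event, 6 of the 108 (5.56%) exceeded 0.1. Among them are the 160-base exon of Zc3h14 described above, a 233-base exon of the same gene and exons of Cnot2, Tnrc6a and Exosc1. The frame was worked out for the loss of each exon alone from an annotated transcript. Events with other flanking exons can drop further exons, so their skipped forms need not carry the early stop. Skipping kept the frame for 79 exons, with a median level of 0.005, and exceeded 0.02 for 20 (25.3%) and 0.1 for 10 (12.7%; 11, or 13.9%, over any tested event). The measured levels are those of RNA present in the cells, so that less frequent skipping and faster loss of the skipped form cannot be told apart.

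The in-frame exons skipped at a level over 0.1 are those of Pan3 (162 bases), Tnrc6a (147 and 33 bases), Upf3b, Pum2, Tnrc6b, Cnot2, Cnot4, Dcp1a and Tnrc6c. Cnot4, a ubiquitin ligase bound to CCR4-NOT, included its 213-base exon at 0.806 and 0.8. The Pan3 exon was itself rare, included at 0.012 and 0.036. Over all 222 distinct exons tested, 12 of 18 skipped at a level over 0.1 had a length divisible by 3 (66.7%), against 77 of 204 skipped less often (37.7%). Over all genes of the table these shares were 50.4% and 38.6%. Fewer exons of the members were skipped over 0.1, 8.11% of 222 against 19.8% of 25344 exons of all genes.

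In 6 exons of 5 genes it was inclusion that gave the early stop, with a median inclusion level of 0.0705 and 3 of the 6 above 0.1. The Smg1 exon printed above was included at mean levels of 0.269 and 0.253, and ends a protein of 3658 residues after 31. A 118-base exon of Pan3 was included at 0.103 and 0.143, cutting the predicted protein from 837 to 301 residues. A 58-base exon of Cnot2 stood at 0.111 and 0.093 and a longer, 228-base version that shares one of its boundaries at 0.045 and 0.033. A 125-base exon of Pum2 was at 0.035 and 0.04 and a 110-base exon of Exosc10, the nuclear exosome nuclease, at 0.008 and 0.005. The largest difference between the set means of these 6 was 0.04, at the Pan3 exon, whose libraries spread from 0.068 to 0.163 in set 1 and from 0.093 to 0.223 in set 2. Transcripts with a predicted early stop in decay genes were thus present in both sets, at levels whose sets overlapped for the exons of Smg1 and Pan3.

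**Figure D2:**
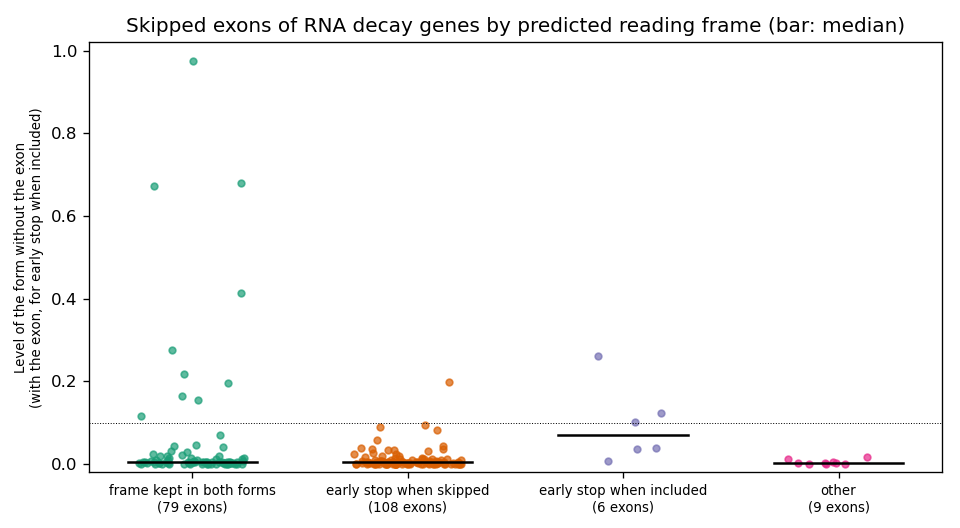
Level of the form without the exon (with the exon for the class with an early stop when included), as the mean of both sets, for 202 skipped exons by predicted reading frame; each point is an exon, bars are medians and the dotted line is 0.1. Most exons lie near 0 both where skipping keeps the frame (median 0.005) and where it gives an early stop (median 0.00425). Above 0.1 lie 10 in-frame exons, 1 with an early stop when skipped and 3 with an early stop when included.

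Junction totals gave a second readout, the reads of the best covered event of each gene as CPM. Such a total follows expression and splicing together, and in bulk RNA fewer cells that express a gene and less RNA per cell cannot be told apart. Of 48 members with enough reads, 0 passed limma at an adjusted p under 0.05, against 88 of 8281 genes (1.06%), or 0.471% counting only genes lower in set 1. At an unadjusted limma p under 0.05 there were 2 of the 48 members, Skiv2l2 and Ttc37, against 782 of 8281 genes. Log2 ratios of set 1 over set 2 were above 0 for 27 members and below 0 for 21, with a median of 0.02 beside 0.01 over all genes. Of the 48 members 44 lay within 0.3 of 0, and 6817 of the 8281 genes did. The sets did not overlap for 5 of 48 members, with 14.1% of all genes for comparison.

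**Figure D3:**
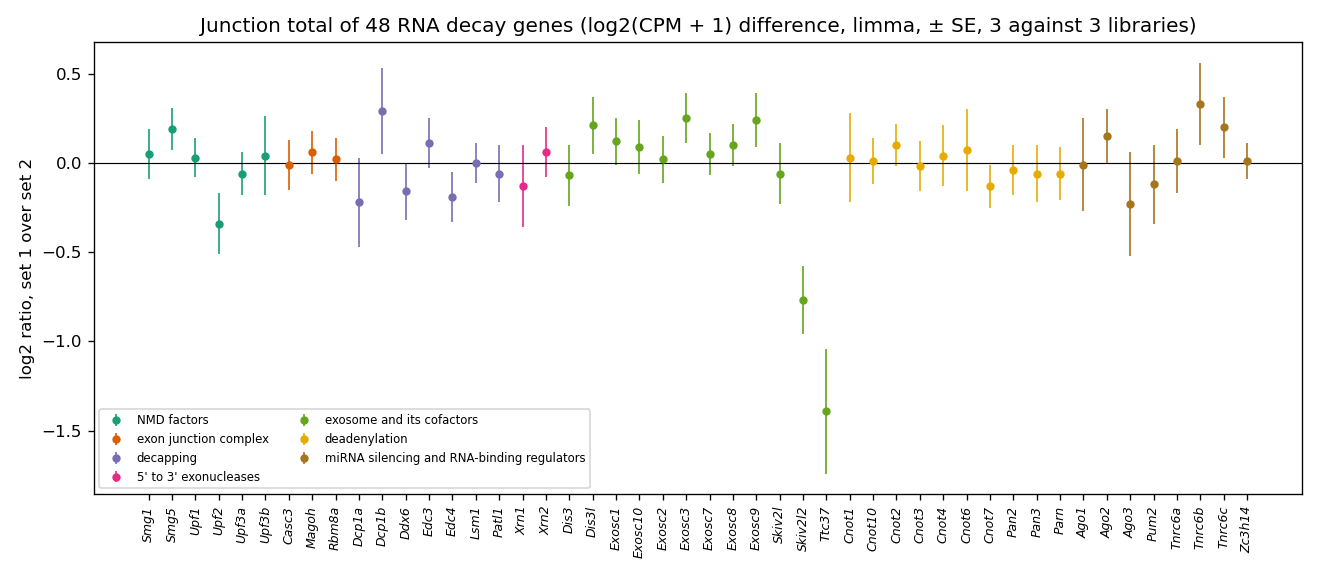
Log2 ratio of junction totals, set 1 over set 2, on the log2(CPM + 1) scale (vertical axis) for 48 members grouped by role; bars are the limma standard error, 3 libraries against 3. Ttc37 at -1.39 and Skiv2l2 at -0.77 lie apart from the other members, which span -0.34 to 0.33.

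By role, the medians were 0.03 for 6 NMD factors, 0.02 for the exon junction complex, -0.06 for 7 decapping genes, -0.04 for the 2 exonucleases Xrn1 and Xrn2, 0.07 for 12 exosome genes, -0.01 for 10 deadenylation genes and 0.01 for 8 silencing genes. Upf2 had 46.8, 35.6 and 35.2 CPM in set 1 and 59.6, 43.5 and 46.2 in set 2, with overlapping sets (log2 ratio -0.34 ± 0.17, limma adjusted p = 0.597). Smg5, which recruits decay enzymes to phosphorylated UPF1, had 93.8, 98.3 and 101 CPM in set 1 and 81.0, 92.9 and 83.7 in set 2. Its sets did not overlap, by a narrow gap (0.19 ± 0.12, limma adjusted p = 0.701). Exosc3, an exosome cap subunit, was at 0.25 ± 0.14 with sets that did not overlap, Exosc9 at 0.24, Tnrc6b at 0.33 and Edc4 at -0.19, none past the test. The Tnrc6b ratio moved to 0.61 without library 1 of set 1 and to 0.13 without library 2 of set 1. Dcp1a, Tnrc6a and Skiv2l, the genes with called events, had log2 ratios of -0.22, 0.01 and -0.06.

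Further genes of the same routes were taken from a list outside the 54. Of 74 listed, 52 had an event and 50 a junction total. None passed limma (0 of 50, 0 also at an unadjusted p under 0.05), against 88 of 8281 genes, and 782 at an unadjusted p under 0.05. Of the 50, 27 were above 0 and 23 below, and the median was 0.02. The authors' deposited table calls an event in 1 of the 52 (1.92%), against 2.63% of all genes in the table. It is a skipped exon of Eif4enif1, which encodes the eIF4E transporter 4E-T of the decapping machinery. Its levels were 0.816, 0.803 and 0.972 in set 1 and 1.0, 0.94 and 1.0 in set 2, with overlapping sets.

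The largest differences in junction total were those of 2 exosome cofactors. Ttc37 encodes the tetratricopeptide scaffold of the SKI complex, in which it holds the helicase Skiv2l. It had 124, 65 and 25 junction reads in set 1 (24.6, 15.4 and 6.15 CPM) and 204, 135 and 170 in set 2 (37.3, 31.6 and 42.0 CPM). Every library of set 1 lay below every library of set 2, and the libraries of set 1 were themselves far apart. The log2 ratio was -1.39 ± 0.35 (limma adjusted p = 0.0875). Skiv2l2, also known as Mtr4, is the helicase of the nuclear exosome. It had 498, 269 and 206 reads in set 1 (98.8, 63.9 and 50.7 CPM) and 651, 511 and 456 in set 2 (119, 120 and 113 CPM), again without overlap (-0.77 ± 0.19, limma adjusted p = 0.0874). In both genes library 1 of set 1 was the closest to set 2. Without it both passed limma, Skiv2l2 at -1.03 (adjusted p = 0.000197) and Ttc37 at -1.80 (adjusted p = 0.000595). Without library 3 of set 1, the lowest, the ratios were -0.55 (limma adjusted p = 0.377) and -0.88 (limma adjusted p = 0.182), and neither passed without any of the other libraries. Skiv2l itself, the partner of Ttc37, did not pass (-0.06, limma adjusted p = 0.972).

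Both genes lie on the distal part of chromosome 13, Ttc37 at chr13:76098734-76190316 and Skiv2l2 at chr13:112867418-112927398 (GENCODE vM21), and no other member lies on this chromosome. The other genes from 70 Mb onward, a boundary chosen after the values were seen, were also low in set 1: 104 of 113 were below 0 (92.0%), with a median log2 ratio of -0.58, and 56 had all libraries of set 1 below those of set 2. Limma called 11 of the 113 lower and 0 higher. Among the 113, 31 had a ratio as low as that of Skiv2l2 and 2 as low as that of Ttc37. The 171 genes below 70 Mb had a median of 0.06, and limma called 4 of them lower and 5 higher. The 7995 on other chromosomes had a median of 0.01, with 24 called lower and 44 higher. Neither part of chromosome 13 was uniform. Proximal genes included Akr1c12 at -1.48 and Idi1 at 0.91, and distal genes Mccc2 at 0.57. The direct neighbours of Ttc37 and Skiv2l2 had ratios of -0.48 (Arsk), -0.37 (Fam172a), -0.46 (Plpp1) and -0.31 (Dhx29).

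**Figure D4:**
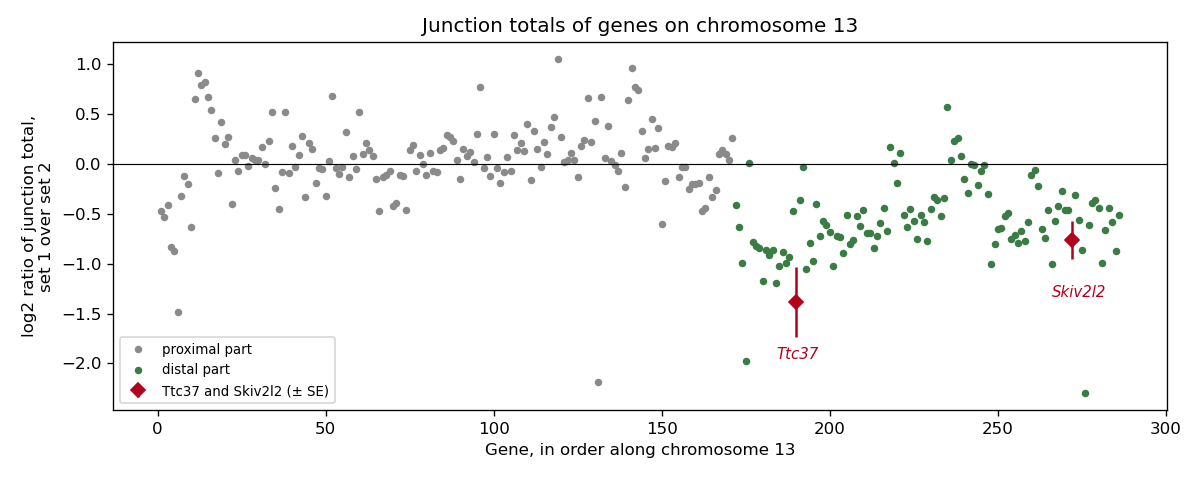
Log2 ratio of junction total, set 1 over set 2 (vertical axis), of genes in their order along chromosome 13 (horizontal axis); grey is the proximal part, green the distal part from 70 Mb, red diamonds are Ttc37 and Skiv2l2 with the limma standard error. Most distal genes lie below 0, with a median of -0.58, and Skiv2l2 lies among them while Ttc37 is near the lower edge.

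The libraries of set 1 were graded in the same order for both genes and for the rest of the distal part. This order was not confined to chromosome 13: Gap43 had 409, 142 and 112 CPM in set 1 and Dbh 4.17, 1.42 and 1.23. Chga (186, 165 and 180 CPM) and Hnrnpdl (400, 429 and 433 CPM) did not follow it. As a percentage of the mean of set 2, Skiv2l2 stood at 84.4, 54.5 and 43.3% in the libraries of set 1 and Ttc37 at 66.6, 41.8 and 16.6%. The other distal genes had a median of 87.3, 59.5 and 55.2% in the same libraries, and of 96.6, 102 and 101% in set 2. Genes of the proximal part had a median of 103, 103 and 105% in set 1. In each library of set 1 Skiv2l2 lay somewhat below the median of the distal genes, and Ttc37 further below it. The part that the difference over the distal chromosome plays in these totals was not tested.

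**Figure D5:**
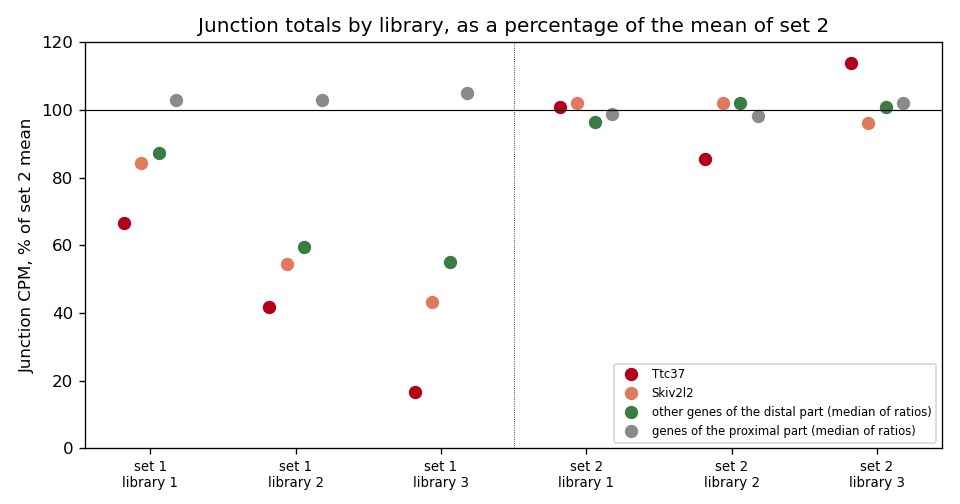
Junction CPM of each library as a percentage of the mean of set 2 (vertical axis, from 0) for Ttc37, Skiv2l2 and the medians of the other genes of the distal and the proximal part of chromosome 13. In set 1 the distal median, Skiv2l2 and Ttc37 lie below 100% and are lowest in library 3, while the proximal median stays at 103 to 105%.

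The table held no event for the decapping enzyme Dcp2, its cofactor Pnrc2, the deadenylase Cnot8, Smg8 or Smg9, and neither readout could be given for them here. Ddx6, Magoh, Exosc3 and Exosc7 were each seen through a single event. The median member had 6 events.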

How the data were processed

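The libraries were made from Trizol-extracted total RNA by an NEBNext Ultra kit, per the labels' protocols. Bowtie2 2.2.3, HISAT2 2.1.0, HTSeq 0.6.0 and build mm10 are named, without a role, per the submitters' processing notes. The deposited table has the layout of rMATS, per the file headers; for its version and annotation: not given in the sources used here. Its 5 sections hold, per event, the authors' counts of inclusion and skipping junction reads, inclusion levels (fractions from 0 to 1), a p-value and an adjusted p, per the file headers. Each deposited cell joins the values of 3 libraries. Levels recomputed from the counts matched the deposited ones to within 0.0005.

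The members, roles and lists, and the boundary on chromosome 13, were chosen with earlier results of these data known. Events with a mean of 20 or more reads were tested with a quasi-binomial test moderated by limma 3.58.1 in R 4.3.3 (dispersion at least 1, spread estimated where the rarer form had 30 or more reads), Benjamini-Hochberg adjusted over all kinds of event, and called at an adjusted p under 0.05 with a change of 0.10. A first form that took the spread from events with 5 or more such reads was replaced after its calls were seen. Junction totals, on the log2(CPM + 1) scale, went into limma with a trended variance, where CPM scales the most covered event of each gene by the library's sum. The added 1 shrinks ratios of weakly covered genes. Both scripts were tested on simulated data. Reads of overlapping events are not independent, and reads that several copies of a gene share could be split by the authors' counting.

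Named are the events called in the authors' table, the smallest p of each role, events with an unadjusted p under 0.05 and sets apart, the 8 smallest limma p, the 8 events whose rarer form had most reads (given again without exclusive pairs, added after the data were seen), genes without an event and the gene with most events; exons and acceptors of the frame and 3-base accounts, and further events whose sets did not overlap, were named after their values were seen. Reading frames and sequences come from GENCODE vM21 transcripts. Some items are not reported here.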

Additional observations from a re-analysis of the deposited data

How the results depend on the processing

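No paired analysis was possible because the columns carry no replicate numbers. The quasi-binomial count of called members was 0 with limma on logit levels, with a mean of 50 or more reads, with no filter, and with each library left out (range 0 to 0); the replaced form with 5 or more reads called 11 events of the whole table and 0 of members. Of the 3 member events called in the authors' deposited table, 1 remained at a change of 0.20 or more (Dcp1a) and 2 at an adjusted p under 0.01. The count of members past limma in junction total was 0 under another pseudocount, filter, scaling or summing over events, and ranged from 0 to 2 with each library left out, the 2 being Skiv2l2 and Ttc37 without library 1 of set 1. Over all 11 alternatives the log2 ratio was between -1.03 and -0.55 for Skiv2l2 (adjusted p 0.000197 to 0.377, limma) and between -1.80 and -0.88 for Ttc37 (adjusted p 0.000595 to 0.298, limma). With each library left out in turn the change in level was 0.192 to 0.298 for Dcp1a, -0.172 to -0.112 for Tnrc6a and -0.203 to -0.06 for the called Skiv2l intron, whose unadjusted quasi-binomial p ranged from 0.0123 to 0.338. Skipping over 0.1 was also counted over any tested event of an exon, an alternative added after the data were seen. It then held for 6 exons whose loss alone gives an early stop, in place of 1. For in-frame exons it was 11 in place of 10. The frame of skipped forms in events with other flanking exons was not worked out. No direction reversed. Depth limits the Dcp1a and Skiv2l events most, with 17 and 9 skipping reads over the 6 libraries.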
